A study of Arabidopsis thaliana with 32 samples.

Results

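Histone acetyltransferases are the enzymes that place acetyl groups on histone lysines. The 10 genes described here encode Arabidopsis members of 4 families, though not all of them. They were taken by locus from a fixed list and not by their measured values: HAG1 (GCN5, AT3G54610), HAG2 (AT5G56740), HAG3 (AT5G50320), HAM1 (AT5G64610), HAM2 (AT5G09740), HAC1 (AT1G79000), HAC5 (AT3G12980), HAC12 (AT1G16710), HAF1 (AT1G32750) and HAF2 (AT3G19040). All 10 are among the 33341 genes of the count table, and 9 of them had enough counts to be tested; HAF2 did not. The question was whether transcripts of the other acetyltransferases differ where the gcn5 label is carried.

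Acetylated histone tails are read by bromodomain proteins and are cleared by deacetylases, and the mark is generally found at transcribed genes. HAG1, HAG2 and HAG3 belong to the GNAT family: HAG1 is the catalytic subunit of the SAGA coactivator, HAG2 resembles yeast Hat1, which acetylates newly made histone H4, and HAG3 (ELP3) is the catalytic subunit of Elongator. HAM1 and HAM2 are the MYST-family enzymes associated with NuA4. HAC1, HAC5 and HAC12 are plant relatives of animal p300/CBP, and HAF1 and HAF2 resemble TAF1, the large subunit of TFIID.

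The study measured RNA from leaves of Col0 plants at 3 weeks in wild type, in plants mutant for ATXR5 and ATXR6 (the enzymes that place a single methyl group on lysine 27 of histone H3; here atxr5/6), in gcn5 plants, and in plants carrying all of these mutations (atxr5/6 gcn5), with 2 libraries per genotype. The libraries were made from ribosome-depleted total RNA and keep strand. The plants were untreated. The labels name no mutant allele and do not say whether the 2 libraries of a genotype come from separate plants or pools, so the p-values measure the spread between these libraries, which may be technical. Another 24 chromatin samples were not analysed here.

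Library depth was 24860332 to 43969417 counts on annotated genes. Nuclear ribosomal RNA features took 0.284% to 2.3% of counts in the 4 libraries without the gcn5 label and 12.9% to 20.8% in the 4 libraries with it; plastid genes took 53.8% to 57.4% and 43.2% to 46.5%. All 4 leaf markers (RBCS1A, RCA, LHCB2.1 and LHCB1.3) were detected in every library, and their summed level was 17600 to 18700 CPM (counts scaled to the size of each library with TMM factors) without the gcn5 label and 10500 to 12500 CPM with it. All 4 fell in the comparison averaged over both backgrounds. The 2 root markers summed to at most 5 counts in any library. The seed marker OLEO1 was at 0 throughout and CRA1 was at 0 in all but 1 library. Both flower markers (AP3 and SEP3) were detected in every library, at 19 to 114 counts summed, and neither was called different. The ribosomal, plastid and leaf marker levels move with the gcn5 label, so an effect of gcn5 on the genes below cannot be told apart from them. In bulk leaves, fewer cells of a type and less RNA per cell cannot be told apart either.

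HAG1, the gene that the gcn5 label names, was not called lower in the libraries carrying that label. HAG1 stood at 5.33 and 4.25 CPM (wild type), 4.71 and 5.56 (atxr5/6), 5.36 and 4.86 (gcn5) and 6.11 and 4.83 (atxr5/6 gcn5). The ranges of all 4 genotypes overlapped. These levels rest on 110 to 245 counts per library. The log2 fold change was 0.08 ± 0.18 (SE; 95% interval −0.33 to 0.49; adjusted p = 0.752, edgeR) in gcn5 against wild type and 0.10 ± 0.17 (−0.30 to 0.50; adjusted p = 0.672) in atxr5/6 gcn5 against atxr5/6. On the linear scale the first interval runs from 0.796 to 1.40 times the wild-type level, so a fall to less than 0.796 of it lies outside. Counts summed over the gene do not show which part of the transcript was read, so they do not check the mutation. The genotypes are therefore used below as labelled, and gcn5 means the libraries labelled gcn5.

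The targeted methyltransferase genes were checked in the same way. ATXR5 had 83 and 150 counts in wild type and 26 and 36 in atxr5/6, a log2 change of −1.99 ± 0.19. It was also lower in gcn5 than in wild type, by −0.69 ± 0.18 (adjusted p = 0.02). ATXR6 had only 6 to 22 counts in any library.

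With the gcn5 label, most acetyltransferase transcripts other than HAG1 and HAM2 were modestly higher, and none of the 9 tested was called lower. In gcn5 against wild type, 4 of 9 rose: HAG2, HAC1, HAC12 and HAF1. Of all 19575 genes tested, 37.5% were called in that comparison, 18.1% as higher and 19.4% as lower. In atxr5/6 gcn5 against atxr5/6, which uses none of the same libraries, 5 of 9 rose: HAG2, HAG3, HAC1, HAC5 and HAC12, where 36.7% of all genes were called, 18.4% as higher and 18.3% as lower. HAG2, HAC1 and HAC12 rose in both, as did 10.5% of all genes tested. The members' median log2 change was 0.25 and 0.38, against 0.01 and 0.05 over all genes.

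Averaged over both backgrounds, 7 of 9 rose, and 51.9% of all genes tested were called in that comparison, 26.7% as higher and 25.2% as lower. The increases were not large among genes. The median size of change, regardless of sign, was 0.32 for the members and 0.34 for all genes, and for HAG2, which changed most among the members, 12.6% of all genes tested had a higher log2 change. The counts also depend on single libraries. In gcn5 against wild type fewer members were called without wild type replicate 1, either gcn5 library or either atxr5/6 library. In atxr5/6 gcn5 against atxr5/6 fewer were called without either atxr5/6 library, and in the average the fewest without gcn5 replicate 1. Calls over all genes also fell in each of these fits, so the drops are not particular to the members. The members' median log2 change was 0.18 without gcn5 replicate 1 in the first comparison. It was 0.39 without atxr5/6 replicate 1 in the second.

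**Figure D1:**
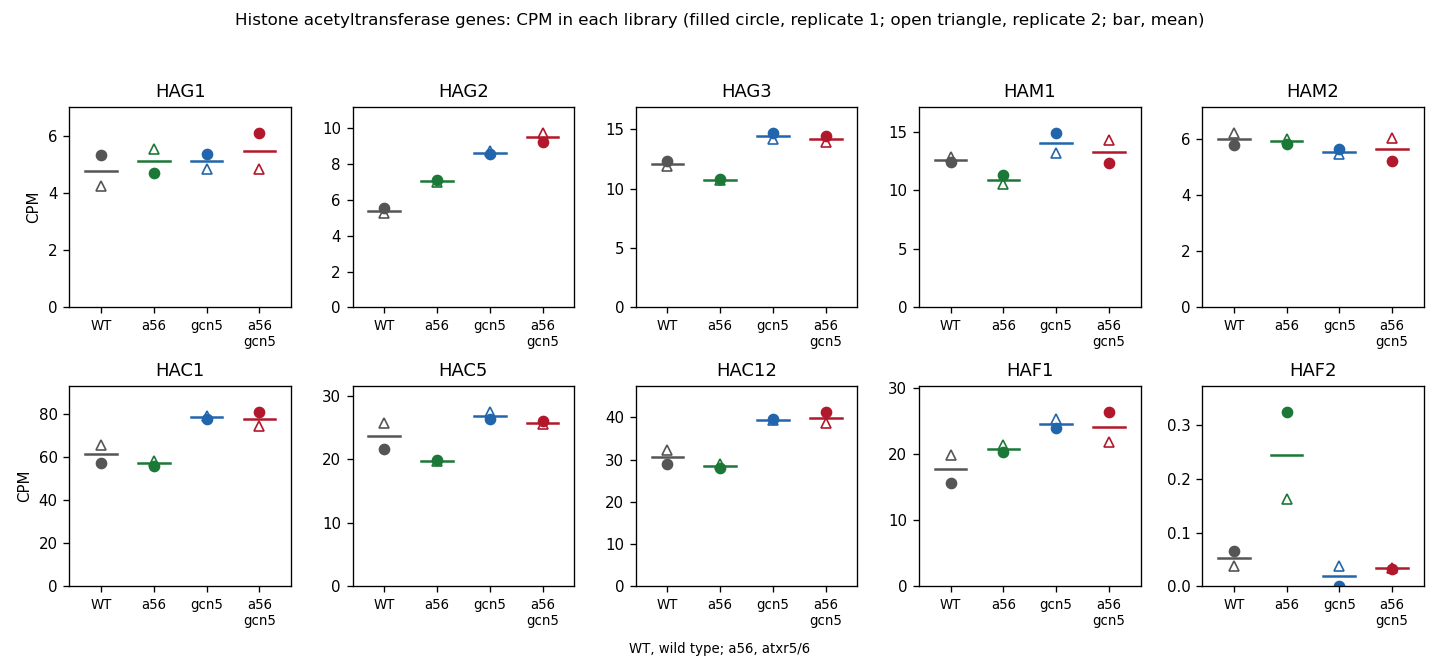
CPM of each of the 10 genes (y axis, from 0, a separate scale per gene) in the 4 genotypes (x axis); points are single libraries and bars are the means of 2. HAG2, HAG3, HAC1, HAC12 and HAF1 are higher in every library with the gcn5 label than in every library without it. Of all genes tested, 42.1% separate these groups with either on top. HAG1, HAM1, HAM2 and HAC5 overlap, and HAF2 reaches at most 0.324 CPM. Levels should not be compared between genes, since they are not divided by transcript length.

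Among the GNAT genes, HAG2 showed the clearest order of genotypes. Its level was 5.54 and 5.25 CPM (wild type), 7.08 and 6.99 (atxr5/6), 8.56 and 8.69 (gcn5) and 9.22 and 9.73 (atxr5/6 gcn5). None of the 4 genotypes overlapped another. With 2 libraries per genotype such separation is common. Of 19575 genes tested, 13871 separated gcn5 from wild type, 14569 atxr5/6 gcn5 from atxr5/6 and 11990 atxr5/6 from wild type. HAG2 rose by 0.67 ± 0.10 (log2, SE; adjusted p = 0.00253) in gcn5 against wild type and by 0.43 ± 0.10 (adjusted p = 0.0126) in atxr5/6 gcn5 against atxr5/6, which is 1.59-fold and 1.35-fold. These calls remained in 16 and 13 of 18 other settings. HAG2 was also higher in atxr5/6 than in wild type, by 0.38 ± 0.10 (adjusted p = 0.0463), a call that remained in 6 of 18 other settings. The upper neighbours in that order, gcn5 and atxr5/6 gcn5, were not called different (0.13, 95% interval −0.10 to 0.37), and atxr5/6 against gcn5 was not tested.

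HAG3, the Elongator enzyme, stood at 12.3 and 11.9 CPM (wild type), 10.8 and 10.7 (atxr5/6), 14.7 and 14.2 (gcn5) and 14.4 and 13.9 (atxr5/6 gcn5). All 4 libraries with the gcn5 label lay above the 4 without it, which also holds for 42.1% of all genes tested with either group on top. HAG3 rose in atxr5/6 gcn5 against atxr5/6 (0.39 ± 0.09, adjusted p = 0.00969), a call that remained in 13 of 18 other settings. The value in gcn5 against wild type was 0.25 ± 0.09 and missed the threshold (adjusted p = 0.0511). HAG3 overlaps a pseudogene, AT5G50315, that has no row in the table.

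Neither MYST gene was called in either background alone. HAM1 was at 12.4 and 12.8 CPM (wild type), 11.3 and 10.5 (atxr5/6), 14.9 and 13.2 (gcn5) and 12.3 and 14.3 (atxr5/6 gcn5), so that atxr5/6 gcn5 overlapped wild type. The log2 values were 0.16 (adjusted p = 0.3) in gcn5 against wild type and 0.28 (adjusted p = 0.0799) in atxr5/6 gcn5 against atxr5/6. The averaged value of 0.22 ± 0.08 passed at adjusted p = 0.0466, but was called in only 2 of 17 other settings. HAM1 overlaps AT5G64600, which had 107 to 287 counts per library against 322 to 570 for HAM1, and whether the counting used strand is not given in the sources used here.

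HAM2 had the flattest profile of the tested members, from 5.23 to 6.22 CPM over all 8 libraries. Its 2 wild-type libraries had 5.80 and 6.22 CPM and its 2 gcn5 libraries 5.64 and 5.46 CPM, while atxr5/6 gcn5, with 5.23 and 6.03 CPM, overlapped both. The averaged log2 value was −0.09 (95% interval −0.29 to 0.11; adjusted p = 0.396), so a change past 1.08-fold higher or below 0.818 of the level without the label lies outside the interval. HAM1 and HAM2 are close paralogs, as are HAC1 and HAC12, and how reads shared between copies were assigned is not given.

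Of the 3 p300/CBP-like members, HAC1 and HAC12 rose in both backgrounds. HAC1, which is known to promote flowering through repression of FLC, was at 57.2 and 65.6 CPM (wild type), 56 and 58.3 (atxr5/6), 77.7 and 78.9 (gcn5) and 80.9 and 74.5 (atxr5/6 gcn5). The lowest library with the gcn5 label was above the highest without it. Of all genes tested, 42.1% separated these groups with either on top. HAC1 rose by 0.35 ± 0.10 (adjusted p = 0.0237) and by 0.44 ± 0.10 (adjusted p = 0.00944) in the 2 backgrounds. The first call remained in 9 of 18 other settings and the second in 14 of 18.

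HAC12 followed HAC1 closely. It was at 29.0 and 32.3 CPM (wild type), 28.1 and 28.9 (atxr5/6), 39.6 and 39.3 (gcn5) and 41.3 and 38.6 (atxr5/6 gcn5). The groups with and without the label again did not overlap, as for 42.1% of all genes tested. The increases were 0.36 ± 0.09 (adjusted p = 0.0168) and 0.49 ± 0.09 (adjusted p = 0.00511). The first call remained in 11 of 18 other settings and the second in 15 of 18. After each gene was centred on its mean log2 CPM, HAC1 and HAC12 differed by a root mean square of 0.0222 over the 8 libraries, the smallest of any pair of tested members, and the largest was 0.358 between HAG2 and HAM2.

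HAC5 had 21.7 and 25.7 CPM (wild type), 19.9 and 19.7 (atxr5/6), 26.3 and 27.5 (gcn5) and 26.1 and 25.5 (atxr5/6 gcn5). Wild type replicate 2 lay inside the range of atxr5/6 gcn5. HAC5 rose in atxr5/6 gcn5 against atxr5/6 (0.38 ± 0.10, adjusted p = 0.0199) and not in gcn5 against wild type (0.19, 95% interval −0.05 to 0.42; adjusted p = 0.179). The call in atxr5/6 gcn5 against atxr5/6 remained in 11 of 18 other settings and was lost with DESeq2. DESeq2 also lost the calls of HAG2 and HAG3 in that comparison, and of HAC1, HAC12 and HAF1 in gcn5 against wild type. The change of HAC5 was not called different between the backgrounds (interaction 0.20, 95% interval −0.13 to 0.52).

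HAF1, one of the TAF1-like genes, was at 15.6 and 19.9 CPM (wild type), 20.3 and 21.4 (atxr5/6), 23.9 and 25.3 (gcn5) and 26.4 and 21.8 (atxr5/6 gcn5). The wild-type libraries were the lowest. Every library with the gcn5 label lay above every library without it, narrowly (21.8 against 21.4 CPM). Of all genes tested, 42.1% separated these groups with either on top. HAF1 rose in gcn5 against wild type by 0.47 ± 0.14 (adjusted p = 0.0307), a call that remained in 9 of 18 other settings, and had 0.21 (95% interval −0.11 to 0.53; adjusted p = 0.261) in atxr5/6 gcn5 against atxr5/6. HAF1 overlaps AT1G32740, which had 2 to 48 counts per library against 516 to 939 for HAF1, and a noncoding gene, AT1G06613, with 0 counts.

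HAF2, its paralog, was barely counted in leaves. It had 3 and 1 counts in wild type, 15 and 5 in atxr5/6, 0 and 1 in gcn5, and 1 and 1 in atxr5/6 gcn5, so the atxr5/6 libraries were the highest. Taken over both libraries, the rate in atxr5/6 was 4.67 times that in wild type (20 against 4 counts; 95% counting interval 1.57 to 18.8), and the rate in atxr5/6 gcn5 was 0.129 of that in atxr5/6 (2 against 20 counts; 0.0146 to 0.53). These intervals cover counting error only, not the spread between libraries. Without the low-count filter, edgeR gave adjusted p = 0.155 and 0.0543 for the same comparisons.

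**Figure D2:**
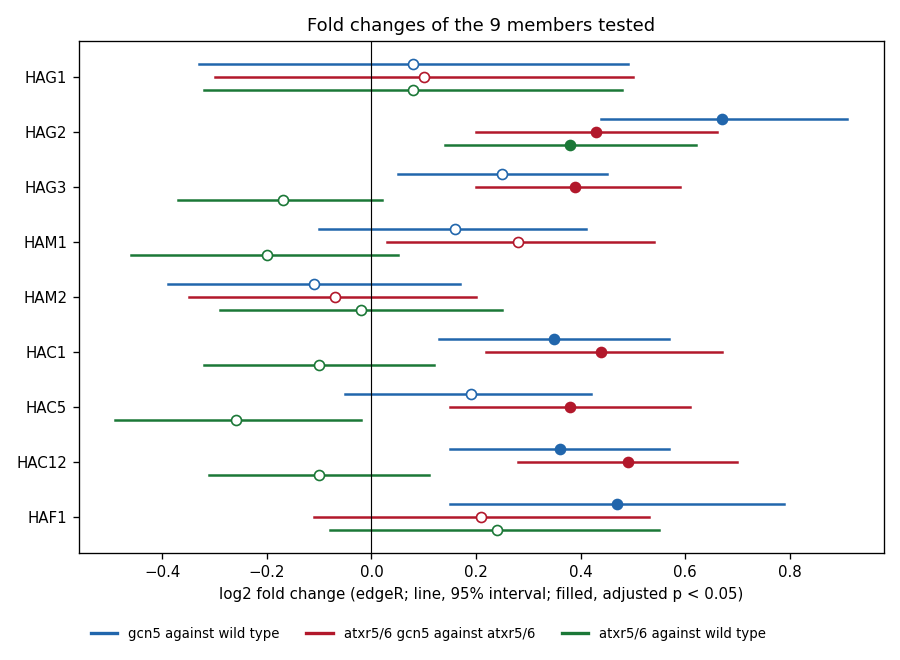
Log2 fold change (x axis) of the 9 tested genes (y axis) in 3 comparisons; lines are 95% intervals and filled points have an adjusted p under 0.05. HAG2, HAC1 and HAC12 are filled in both comparisons that add the gcn5 label, and HAG2 alone in atxr5/6 against wild type.

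Where atxr5/6 was set against wild type, HAG2 was the only member of 9 called, and 13.2% of all genes were called, 5.48% as higher. That single call was lost without either wild-type library, either atxr5/6 library or either gcn5 library. The HAG2 value itself ran from 0.36 to 0.42 when 1 library was left out. Calls over all genes also fell in these fits, except without wild type replicate 1, and most without either atxr5/6 library. Without wild type replicate 1, HAC5 had −0.37. HAC5 otherwise had −0.26 (95% interval −0.49 to −0.02; adjusted p = 0.135) in this comparison. The median over the members was −0.10, against −0.01 over all genes.

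Against wild type, atxr5/6 gcn5 had 4 of 9 members higher, HAG2 (0.81 ± 0.10), HAC1 (0.34 ± 0.10), HAC12 (0.38 ± 0.09) and HAF1 (0.45 ± 0.14), where 39.1% of all genes were called and 18.7% were called higher. This comparison shares its wild-type libraries with gcn5 against wild type, in which the same 4 genes were called. Fewer members were called without wild type replicate 1, either atxr5/6 library, gcn5 replicate 1 or atxr5/6 gcn5 replicate 1. Calls over all genes fell in these fits too. Adding atxr5/6 to gcn5 changed 0 of 9 members by edgeR, by DESeq2 and at an unadjusted p under 0.05, where 0.092% of all genes were called. The interaction of atxr5/6 and gcn5 likewise called 0 of 9 by either tool and at an unadjusted p under 0.05, with 0.47% of all genes called; its member values ran from −0.26 for HAF1 to 0.20 for HAC5.

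Within a library, the share of a gene among all counts on the 10 genes does not depend on library scaling. HAM2 took 3.52% and 3.38% of them in wild type, 3.55% and 3.57% in atxr5/6, 2.61% and 2.51% in gcn5, and 2.36% and 2.88% in atxr5/6 gcn5. All 4 libraries with the gcn5 label were below the 4 without it, while in CPM the HAM2 ranges overlapped. In CPM, 42.1% of all genes tested separated these groups with either on top. HAG1 took 2.31% to 3.30% without the label and 2.23% to 2.75% with it, and these ranges overlapped. HAG2 took 3.36% and 2.85% in wild type and 3.96% to 4.65% in the 6 mutant libraries. HAC1 took 34.1% to 36.4% in every library. The shares show unequal change among the genes and do not say which of them changed.

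**Figure D3:**
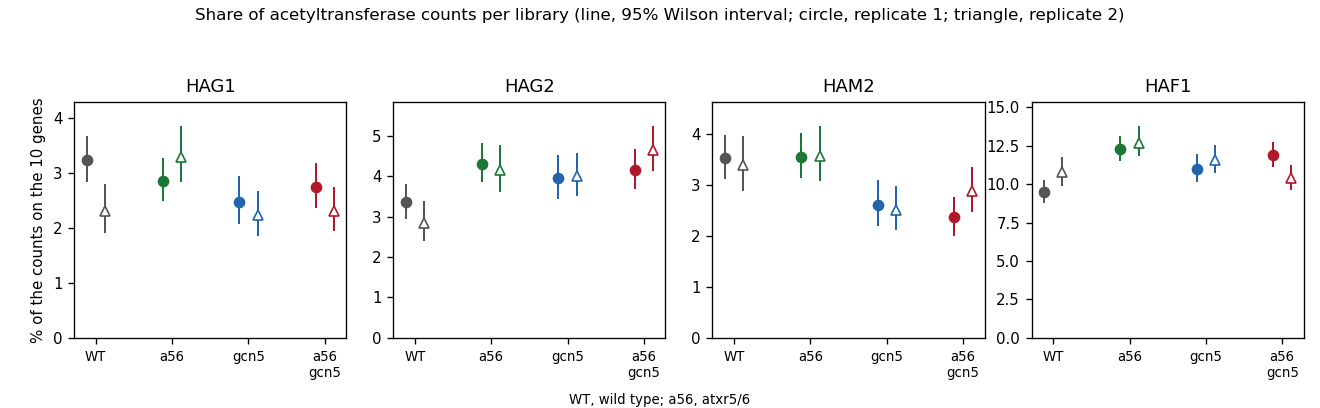
Share of the counts on the 10 genes taken by HAG1, HAG2, HAM2 and HAF1 (y axis, percent, from 0) per library and genotype (x axis); lines are 95% Wilson intervals, which cover counting error only. HAM2 lies between 3.38% and 3.57% without the gcn5 label and between 2.36% and 2.88% with it, while its CPM ranges overlap. HAG2 is lowest in wild type.

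Genes that the list leaves out were compared as background. Of 4 other acetyltransferase genes (HAC2, HAC4, IDM1 and MCC1), HAC2, a further p300/CBP-like gene, rose in both backgrounds by far more than any member. It had 8 and 0 counts in wild type, 42 and 26 in atxr5/6, 104 and 89 in gcn5, and 252 and 212 in atxr5/6 gcn5, or 0.174 and 0, 0.907 and 0.85, 4.22 and 3.35, and 8.24 and 7.26 CPM. No 2 genotypes overlapped, though 13871 of the 19575 genes tested also separated gcn5 from wild type. Over both libraries the rate in gcn5 was 33.9 times that in wild type (193 against 8 counts; 95% counting interval 16.8 to 79.6), and in atxr5/6 gcn5 it was 8.78 times that in atxr5/6 (6.80 to 11.5).

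The fitted log2 changes of HAC2 were 5.06 ± 0.46 (adjusted p = 0.000322) and 3.13 ± 0.30 (adjusted p = 0.000345), and 31 and 119 of the 19575 genes had a higher one. HAC2 was also higher in atxr5/6 than in wild type (2.96 ± 0.54, adjusted p = 0.0131). With 8 and 0 counts in wild type, under the minimum of 10, HAC2 passed the filter only through the mutant libraries where it is higher. Its calls against wild type therefore do not test whether it is higher there. In atxr5/6 gcn5 against atxr5/6, every library was above that minimum. The interaction was −1.93 ± 0.64 and was not called (adjusted p = 0.184). Each call that adds the gcn5 label remained in 17 of 18 other settings, and the fitted value against wild type ran from 4.37 to 9.85 over them, since wild type rests on 8 counts of 1 library. HAC4 fell in atxr5/6 gcn5 against atxr5/6 (−0.49, adjusted p = 0.0478), a call that remained in 8 of 18 other settings and was lost with the replicate block. IDM1 and MCC1 were not called in these comparisons.

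The partners of HAG1 in its acetyltransferase module were, like HAG1, not called in either background. Of ADA2A, ADA2B, ADA3, SGF29A and SGF29B, 0 of 5 passed in each comparison by edgeR and by DESeq2, with 1 of 5 at an unadjusted p under 0.05 in each. Of all 19575 genes tested, 37.5% and 36.7% were called by edgeR, and 9446 and 9325 had an unadjusted p under 0.05. DESeq2 called 4779 and 4401 of 26705. The adapter ADA2B had −0.27 (adjusted p = 0.0912) and −0.04 (adjusted p = 0.802), and the median of the 5 was 0.03 and −0.02. SGF29B had 0.35 in the average (adjusted p = 0.0494), called in 3 of 17 other settings.

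Other SAGA subunits gave 3 of 14 higher in gcn5 against wild type and 5 of 14 in atxr5/6 gcn5 against atxr5/6, with none lower, where 18.1% and 18.4% of all genes were called higher. TRA1A (0.59 and 0.59) and TRA1B (0.76 and 0.67), the large subunits shared by SAGA and NuA4, rose in both. TAF5 rose in the first (0.28), a call that remained in 2 of 18 other settings, and had 0.19 in the second (adjusted p = 0.139). The histone deubiquitinase UBP22 (0.50) rose in the second. ELP2, which works with HAG3 in Elongator, rose in the first (0.48), a call that remained in 11 of 18 other settings and was lost with DESeq2. In the second ELP2 had 0.20 (adjusted p = 0.238). Of 12 NuA4 genes, 3 rose in each background, EAF1A (0.51 and 0.43) and EAF1B (0.60 and 0.52) in both, YAF9B (1.91) in the first and SWC4 (0.35) in the second.

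Deacetylases moved in both directions. Of 15 tested among 18 listed, 7 rose and 1 fell in gcn5 against wild type, and 6 rose and 3 fell in atxr5/6 gcn5 against atxr5/6. Of all genes, 18.1% and 18.4% were called higher and 19.4% and 18.3% lower. The plant-specific HD2 genes HDT2 (0.88 and 0.63) and HDT3 (0.60 and 0.52) and the RPD3-type genes HDA19 (0.40 and 0.50), HDA5 (0.49 and 0.57) and HDA15 (0.28 and 0.32) rose in both. The HDA15 calls remained in 6 and 7 of 18 other settings. HDA14 fell in both (−0.32 and −0.94), and the first of these calls remained in 6 of 18 other settings. HDA18 (−0.82) and the sirtuin SRT2 (−0.41) fell in the second.

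Of 11 tested BET-type bromodomain genes, whose proteins bind acetylated histones, 4 rose in gcn5 against wild type and 6 in atxr5/6 gcn5 against atxr5/6, with none lower, beside 18.1% and 18.4% of all genes called higher. GTE11 (0.52 and 0.86), GTE9 (0.33 and 0.61) and GTE12 (0.65 and 0.47) rose in both. Medians were 0.30 and 0.31 for this list and 0.29 and 0.32 for the deacetylases, in the range of the acetyltransferases.

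**Figure D4:**
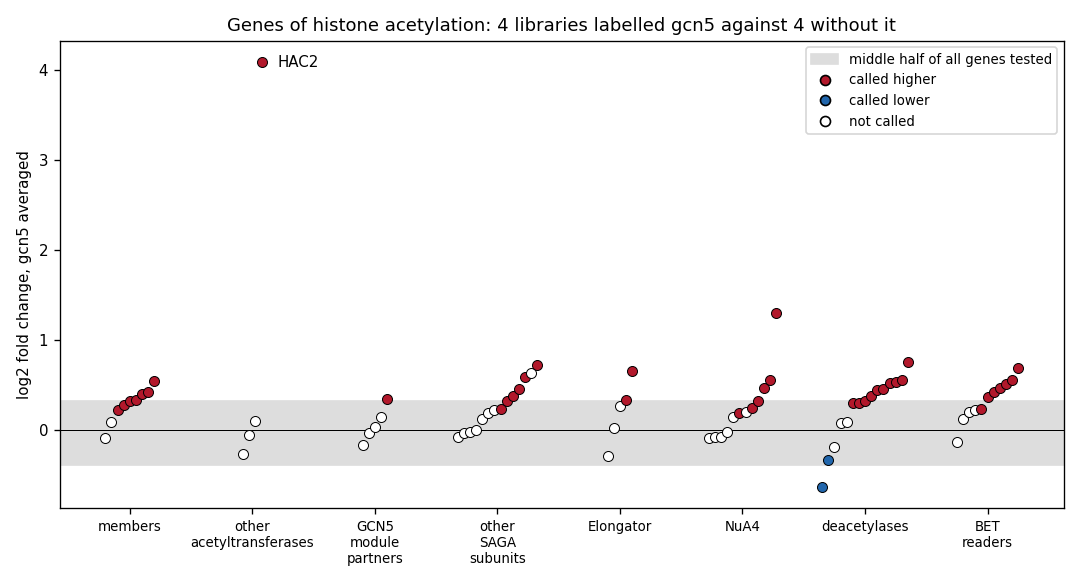
Log2 fold change averaged over both backgrounds (y axis) of each tested gene, by list (x axis); colour gives the call at an adjusted p under 0.05 and the grey band the middle of all 19575 genes, from −0.38 to 0.32. The partners of GCN5 lie between −0.16 and 0.35, most SAGA, deacetylase and BET points lie above 0, and HAC2 at 4.09 stands apart.

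How far the members' calls rest on the treatment of the data is shown by the same averaged comparison. With library totals in place of TMM factors, the median over all genes in gcn5 against wild type moved by −0.10 and the share of calls that were higher went from 48.2% to 27.8%; in the average it went from 51.5% to 33.0%. Under that scaling HAG1 had −0.01 and HAG2 was the only member called in the average, at 0.46. With the ribosomal share of each library as a covariate 0 of 9 members were called by edgeR, as were 0 of all 19575 genes, with 2020 at an unadjusted p under 0.05; the share separates the libraries as the gcn5 label does.

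**Figure D5:**
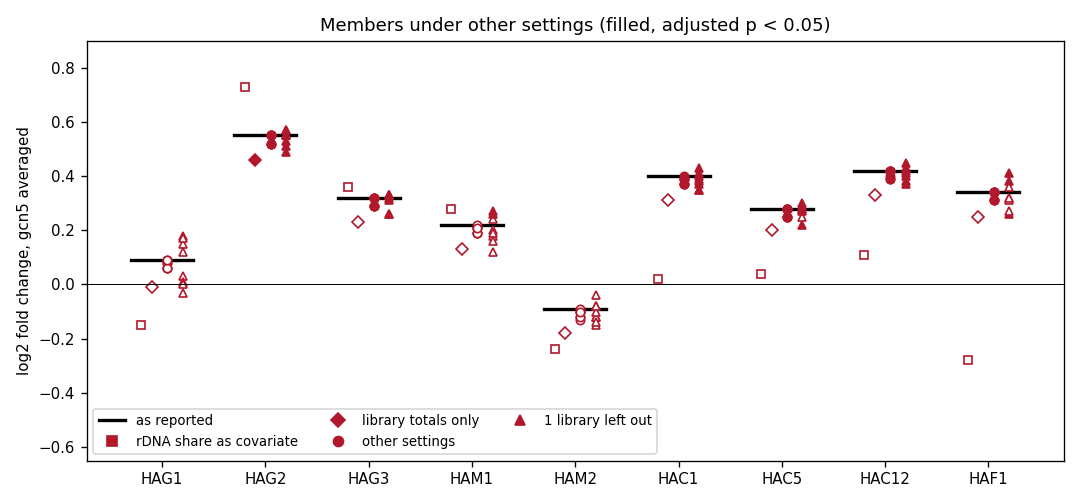
Log2 fold change averaged over both backgrounds (y axis) of the 9 tested genes (x axis) as reported (bar) and under each other setting (points; filled at an adjusted p under 0.05). HAG2 stays between 0.46 and 0.73, HAF1 falls to −0.28 with the ribosomal share as covariate, and HAG1 lies on both sides of 0.

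Similarity of profile was measured over the 8 libraries as the root mean square difference in centred log2 CPM. The genes closest to HAG1 were AT5G53340 (0.0709), AT1G14450 (0.077) and AT3G49990 (0.0773), where the median over all genes tested was 0.308. The genes closest to HAG2 were AT5G41850 (0.0307), CYP71B12 (0.0444) and AT5G18790 (0.0482), against a median of 0.396.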

How the data were processed

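The authors deposited raw counts per gene for 8 libraries. The submitters' processing notes list STAR 2.7.2a, featureCounts 1.6.4 and DESeq2 1.26 and the TAIR10 build without saying how each was used; strand and multimapping settings are not given in the sources used here. Symbols came from a RefSeq name table, which matched 33056 of 33341 genes. Genes passing filterByExpr (minimum count 10; 19575) were fitted for all 8 libraries and genotypes together with edgeR 4.0.16 (R 4.3.3; TMM, quasi-likelihood test; common biological coefficient of variation 0.123), with Benjamini-Hochberg adjustment over all genes tested and calls at 0.05. The script was tested on simulated data. CPM used TMM-scaled totals, and profile similarity added a prior count of 2. The members and lists were chosen with earlier results of these data known. Named genes were the members, the GCN5 partners, both targeted methyltransferases, up to 3 called genes per list, direction and background with the smallest p, list genes called alike in both, and 3 nearest profiles. GTE10, TAF12B and genes overlapping a member were named after their values were seen. 1 gene that this rule names is not reported here. A table of transposable elements was not used. Alternatives included DESeq2 1.42.0, other scalings and filters, a replicate block and leaving out each library.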

Additional observations from a re-analysis of the deposited data

How the results depend on the processing

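Members called went from 4 to 0 with library totals, 1 with DESeq2, 1 with only the genotypes compared and 0 with the ribosomal covariate in gcn5 against wild type (1 to 4 leaving out 1 library). In atxr5/6 gcn5 against atxr5/6 they went from 5 to 0, 2 and 0 with totals, DESeq2 and the covariate (0 to 6), and in the average from 7 to 1, 4 and 0 (4 to 7). In atxr5/6 against wild type the 1 call became 0 with the replicate block, the covariate, DESeq2, totals, a fit on only the genotypes compared, and no filter (0 to 1). In atxr5/6 gcn5 against wild type 4 became 1, 1, 1 and 0 with totals, DESeq2, only the genotypes compared and the covariate (1 to 4). The remaining comparisons stayed at 0 throughout. Calls over all genes moved too. In gcn5 against wild type 7343 of 19575 became 4838 with totals and 4779 of 26705 with DESeq2. With only the genotypes compared it was 5424 of 18904. In atxr5/6 gcn5 against atxr5/6, 7179 became 4386 with totals and 4401 with DESeq2, and in the average 10165 became 7138 and 7362. In atxr5/6 against wild type, 2578 became 1979 with totals, 1983 with DESeq2 and 2458 with only the genotypes compared. The upper ends of the ranges for atxr5/6 gcn5 against atxr5/6 and for the average include HAF2, called lower, which had newly passed the filter. Its log2 value in the first was −2.84 without wild type replicate 2 and −2.80 without gcn5 replicate 2. In the average it was −3.39 without gcn5 replicate 2. HAF2 passed only through atxr5/6 replicate 1, where it had 15 counts, against at most 5 in any other library. It was thus admitted by the group in which it is high, so these calls do not test whether it is lower. Where a left-out library leaves 1 in a genotype, that library is assumed to vary like the others.

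Signs turned among called values under the covariate alone: HAC1 at −0.09 and −0.11, HAF1 at −0.27 and −0.30, in gcn5 and atxr5/6 gcn5 against wild type; HAC12 at −0.01 and HDA5 at −0.10 in gcn5 against wild type; HAF1 at −0.28, GTE10 at −0.34, SWC4 at −0.12 and TAF12B at −0.57 in the average; and GTE10 at −0.07 in atxr5/6 gcn5 against atxr5/6. The cause was not tested. Of 2779 values called in neither fit, 205 changed sign.

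Replicate numbers pair nothing in the labels: deviations of same-numbered libraries correlated at −0.192 to 0.194 across genotype pairs. The replicate block left the counts at 4 and 5 in the comparisons that add the gcn5 label and 6 in the average. Crossing the numbers for atxr5/6 gcn5 against wild type, chosen after seeing the data, gave 4. Depth limits HAF2, at 15 counts or fewer per library.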
